A study of Mus musculus with 3 samples.

Results

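To describe the macrophages of dorsal skin that carried little of the chemokine transcript Ccl8 and none of the hyaluronan receptor transcript Lyve1, these cells were followed across 3 single-cell RNA libraries of mouse skin. The cells were chosen by their own UMI counts (UMIs being molecules counted after removal of PCR copies). A macrophage needed at least 1 UMI of at least 4 of the 7 genes C1qa, C1qb, C1qc, Ms4a7, Pf4, Csf1r and Mrc1, no UMI of Cd3e or Cd3d and fewer than 5 UMIs of Krt14 and Krt5 together. A Ccl8-low macrophage had in addition 0 UMIs of Lyve1 and at most 1 UMI of Ccl8. The rule found 1408 cells, of 7202 macrophages and of 16604 cells that passed the quality limits. WT_Ctrl gave 281 of these cells, WT_UV 619 and RP_UV 508. Levels of the genes that the rule used are a description of the choice and support nothing here.

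Macrophages of the dermis are kept by long-lived local cells and by blood monocytes that enter the skin and mature there. Incoming monocytes are known to carry the chemokine receptor Ccr2 and the surface protein Ly6C, encoded by Ly6c2, and mature in steps in which Ly6c2 is lost and MHC class II, used to present antigen to T cells, is often gained. Macrophages beside vessels are known for Lyve1, Folr2 and Cd163. After ultraviolet B (UVB) injury, skin macrophages can release the neutrophil attractants Cxcl1 and Cxcl2, the monocyte attractants Ccl2 and Ccl7, and interleukin 1 beta. The cyclooxygenase Cox-2, encoded by Ptgs2, makes the precursor of prostaglandin E2, a lipid that acts on macrophages through the receptors encoded by Ptger2 and Ptger4.

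All animals were male C57Bl/6 mice of 8 weeks, with dorsal skin in telogen, the resting phase of the hair cycle, and immune cells were enriched from digested skin with CD45+ magnetic beads. WT_Ctrl was wild-type skin without UVB. WT_UV was wild-type skin after 3 UVB exposures. RP_UV was skin of RP mice after the same 3 exposures, RP standing for Rosa26-rtTA; Tre-Ptgs2, in which the doxycycline-dependent activator rtTA, made from the Rosa26 locus in all tissues, switches on a rat Ptgs2 transgene when doxycycline is given, so that no cell type carried the transgene alone. Skin of WT_UV and of RP_UV was collected at day 5. In the paper's assay of melanocyte migration, RP and control animals received doxycycline before UVB. Whether the wild-type mice of these libraries received doxycycline is not given in the sources used here. Each group was 1 library of 1 mouse, so there is no replicate, no test and no p-value, and a difference between libraries is a difference between these libraries. Intervals cover counting error only. By the flow-cell codes in the labels, RP_UV ran together with WT_Ctrl, and WT_UV ran apart, so UVB or genotype cannot be told apart from the sequencing run in either contrast with WT_UV. RP_UV against WT_Ctrl, which shared the flow cell, differs in both UVB and genotype.

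The Ccl8-low macrophages held 1232427 UMIs in WT_Ctrl, 7877943 in WT_UV and 2754656 in RP_UV, with a median of 4046, 11521 and 5076 UMIs per cell in that order. WT_UV was the deepest library, and 108 of its Ccl8-low macrophages had 4000 genes or more, a size that the quality limits removed from the other libraries. Of these macrophages, 1 in RP_UV shared its barcode with 1 in WT_UV, and no others among them shared a barcode between libraries. Levels below are CPM, the UMIs of a gene per 1000000 UMIs, both summed over the Ccl8-low macrophages of a library, and brackets after a ratio give its exact 95% interval.

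Ptgs2, the gene that the RP mice overexpress, was at 31.6 CPM in WT_Ctrl, 228 in WT_UV and 447 in RP_UV. The ratio was 7.22 (5.26 to 10.2) for WT_UV over WT_Ctrl and 1.95 (1.82 to 2.10) for RP_UV over WT_UV. The order followed the labels. In WT_Ctrl, 37 of the 39 Ptgs2 UMIs lay in 5 cells, whereas 144 of 619 Ccl8-low macrophages of WT_UV and 230 of 508 of RP_UV had a Ptgs2 UMI. The row is the mouse gene, and the sources used here do not state whether reads of the rat transgene were counted in it. Cells with at least 5 keratin UMIs, taken as keratinocytes, had 7.30, 8.57 and 587 CPM of Ptgs2 in the same order, above the level of the macrophages in RP_UV. The part of free keratinocyte RNA in the RP_UV value was not tested.

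The working label of recruited-like macrophages was set against 5 marker genes. Ms4a7, a membrane protein of macrophages and a gene of the rule, was at 208 CPM in WT_Ctrl, 339 in WT_UV and 512 in RP_UV, below the 659, 815 and 1197 CPM of the Ccl8-high Lyve1-negative macrophages of the same libraries. C3ar1, the receptor of complement C3a, was at 183, 243 and 199 CPM, also below the Ccl8-high macrophages at 253, 271 and 212. Msr1, a scavenger receptor, stood at 41.4, 181 and 197 CPM. Among the Ccl8-high macrophages Msr1 was at 90.6, 179 and 195 CPM, so the classes differed in WT_Ctrl and lay close in the irradiated libraries.

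Chil3, a chitinase-like protein of monocytes and of alternatively activated macrophages, was at 0.811 CPM in WT_Ctrl, which is 1 UMI, at 57.9 in WT_UV and at 584 in RP_UV. Trem2, a lipid receptor of macrophages, was at 112, 79.3 and 205 CPM, above the Ccl8-high macrophages at 40.1, 59.1 and 144. The monocyte gene Ly6c2 was at 1.62, 26.7 and 18.5 CPM, with a UMI in 2 of 281, 54 of 619 and 28 of 508 cells. In WT_Ctrl, Chil3 and Ly6c2 were near 0, C3ar1 and Msr1 were lower than in the Ccl8-high class and Trem2 was higher. After thinning each cell to 2000 UMIs, Chil3 was found in 9.63% of Ccl8-low and 3.96% of Ccl8-high macrophages of WT_UV. In RP_UV these shares were 31.4% and 17.6%. Ly6c2 was found in 4.05% and 1.46% in WT_UV and in 3.36% and 0.400% in RP_UV. By CPM, C3ar1 stayed lower and Msr1 close in the irradiated libraries. Leaving aside Ms4a7, which the rule used, the markers thus went in the direction of the label only in part. The cells are called Ccl8-low macrophages here, after the rule.

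**Figure D1:**
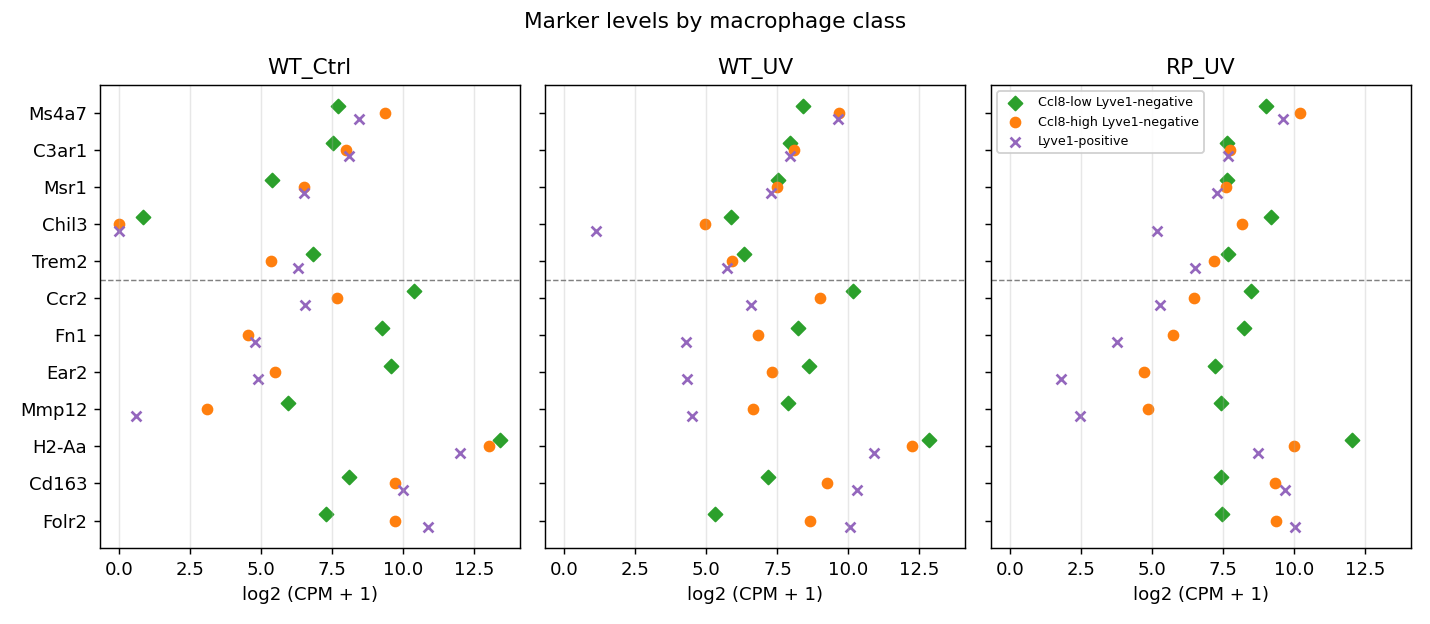
Level of each gene (log2 of CPM plus 1, horizontal axis) in the 3 macrophage classes of each library (1 panel a library). Above the dashed line stand the 5 markers of the label. Below it stand Ccr2, Fn1, Ear2 and Mmp12, which were among the genes that led the class differences, and H2-Aa, Cd163 and Folr2. Ms4a7 was lowest in the Ccl8-low class in every panel, whereas Ccr2, Fn1, Ear2 and Mmp12 were highest there.

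Genes outside the rule set the class apart more clearly. Of 2496 genes compared with the Ccl8-high macrophages, 113 were at least 1.5-fold higher and 190 at least 1.5-fold lower in the Ccl8-low class in all 3 libraries. Of 2617 genes compared with the Lyve1-positive macrophages, 168 were higher and 336 lower by the same measure. Classes cut from UMIs of the same cells had to differ in part, and these counts are a description.

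Ccr2, the receptor of Ccl2, was at 1332 CPM in WT_Ctrl, 1136 in WT_UV and 356 in RP_UV. The Ccl8-high macrophages had 205, 511 and 88.4 CPM, a ratio of 6.49 (5.98 to 7.04), 2.22 (2.16 to 2.29) and 4.03 (3.62 to 4.49). Ccr2 was thus higher in the Ccl8-low class in each library, although its level in RP_UV was the lowest of the 3.

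Fn1, encoding the matrix protein fibronectin, was at 613, 295 and 303 CPM, with ratios to the Ccl8-high class of 27.7 in WT_Ctrl, 2.65 in WT_UV and 5.72 in RP_UV. Ear2, an RNase of the eosinophil-associated family that shares reads with near-identical copies and is uncertain for that reason, was at 764, 392 and 149.6 CPM, with ratios of 17.3, 2.49 and 5.94. Mmp12, the macrophage elastase, was at 61.7, 236 and 174 CPM, with ratios of 8.10, 2.42 and 6.12. For each of these genes the ratio was smallest in WT_UV. WT_UV was also the deepest library, and the Ccl8 limit counts UMIs. Its cells with 2 Ccl8 UMIs, placed in the Ccl8-high class, had 1067 CPM of Ccr2. The part of depth in these ratios was not tested.

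Cd52, a small surface glycoprotein of leukocytes, stood at 1410.2, 1425 and 1076 CPM, which was 5.07, 1.93 and 3.63 times the level of the Ccl8-high class. The cell adhesion gene Alcam had 127, 147 and 141 CPM, or 8.20, 2.44 and 3.88 times that level. Lpl, encoding lipoprotein lipase, was at 1108, 568 and 209 CPM, with ratios of 4.66, 1.95 and 2.81. The MHC class II gene H2-Aa differed less in WT_Ctrl and WT_UV, by 1.32 and 1.5 times, and by 4.08 times in RP_UV.

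Genes of resident macrophages lay on the other side. Folr2, a folate receptor, was at 157, 38.6 and 175 CPM against 838, 398 and 654 in the Ccl8-high class and 1901, 1068 and 1059 in the Lyve1-positive class. Cd163, the receptor of haemoglobin bound to haptoglobin, was at 273, 142 and 174 CPM against 837, 604 and 651 in the Ccl8-high class. The lectin Cd209b, a member of a family with close copies, was at 30, 20.1 and 14.5 CPM against 372, 249.7 and 267. Complement C4b was at 86.8, 10.7 and 21.1 CPM against 551, 310.4 and 168. Each of these genes was lower in the Ccl8-low class in every library.

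Ccl8-low macrophages made up 14.7% of the macrophages of WT_Ctrl (13.2 to 16.4). The share was 23.4% in WT_UV (21.8 to 25) and 19.2% in RP_UV (17.7 to 20.8). The rule counts UMIs, so deeper cells can lose membership through a second Ccl8 UMI and gain it through a further macrophage marker. With every cell thinned to 2000 UMIs, the shares were 14.8% in WT_Ctrl, 33.8% in WT_UV and 24.3% in RP_UV. The order of the libraries was the same at both depths, and the gap between WT_UV and the others was wider at equal depth. With Ccl8 required at 0 UMIs, the shares were 9.90%, 11% and 10.9%. At the deposited depth, the difference in share thus depended on cells with 1 Ccl8 UMI. A limit of 0 UMIs is stricter in the deeper WT_UV, and it was not applied at equal depth.

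**Figure D2:**
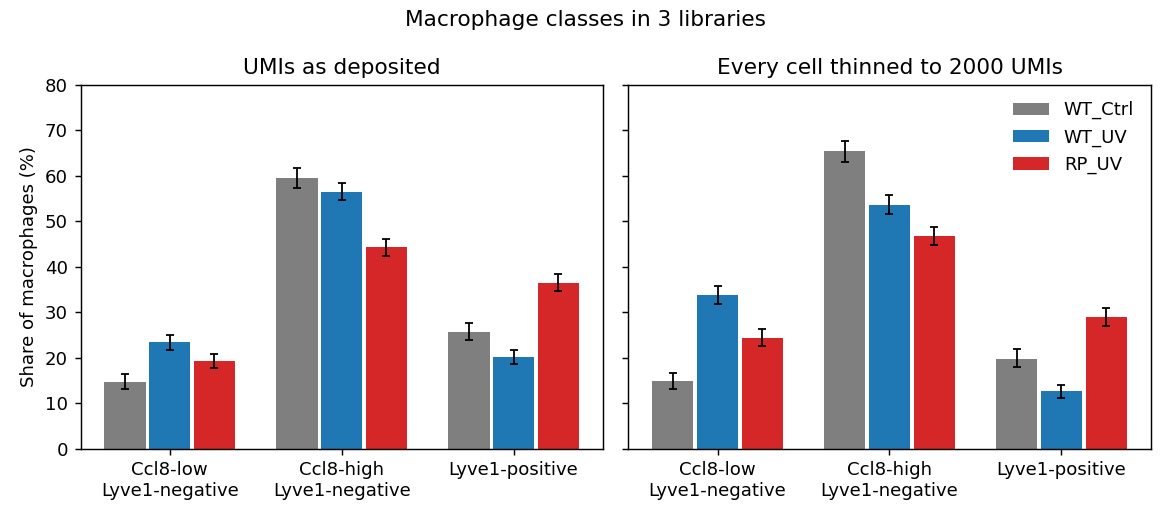
Share of macrophages (%, vertical axis) in the 3 classes, for the UMIs as deposited (left) and with every cell thinned to 2000 UMIs (right); bars start at 0 and whiskers are exact 95% binomial intervals. The Ccl8-low share was 14.7% in WT_Ctrl, 23.4% in WT_UV and 19.2% in RP_UV as deposited, and 14.8%, 33.8% and 24.3% after thinning.

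Cells just inside and just outside the rule are given with no test. At 0 Lyve1 UMIs, 92 macrophages of WT_Ctrl, 327 of WT_UV and 221 of RP_UV had 1 Ccl8 UMI and were inside, and 43, 245 and 163 had 2 Ccl8 UMIs and were outside. In WT_Ctrl, Ccr2 was at 1429.6 CPM in the cells with 1 Ccl8 UMI and 859.6 CPM in those with 2, and Pf4, a platelet chemokine made by macrophages, at 1151 and 2079 CPM. In WT_UV, Ccr2 was at 1119 and 1067 CPM on the 2 sides, so the limit cut through cells of similar level.

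Cells with 4 of the 7 markers numbered 54, 152 and 110 and were inside, whereas 121, 160 and 187 cells with 3 markers were outside. Pf4, which is among the markers counted, was at 116, 347 and 947 CPM in the cells with 4 markers and at 47.8, 39.6 and 405 CPM in those with 3. H2-Aa, which the rule did not use, was at 10748, 8999 and 6758 CPM inside and at 13308, 9295 and 5221 CPM outside. H2-Aa was thus high on both sides of this limit.

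UVB was examined by WT_UV against WT_Ctrl. A gene was tested at a mean of at least 20 CPM in the pair and called at a ratio of at least 2 or at most 0.5. Of 5565 genes tested, 265 were called higher, or 4.76%, and 140 lower, or 2.52%. The median log2 ratio over all tested genes was 0.08. In the Ccl8-low macrophages of WT_UV, Il1b, Osm, Cxcl2, Ccl2, Ccl7 and Mmp12 were among the genes called higher, and Retnla, Gbp2b, Iigp1, Igf1 and Folr2 among those called lower.

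Of 14 inflammatory cytokines and regulators, 10 could be tested, 7 were called higher and 0 lower, with a median log2 ratio of 1.40. Il1b, encoding interleukin 1 beta, was at 355 CPM in WT_Ctrl, 1189 in WT_UV and 1649 in RP_UV. The ratio of WT_UV over WT_Ctrl was 3.35 (3.05 to 3.70). A UMI of Il1b was present in 42 of 281 Ccl8-low macrophages of WT_Ctrl, 415 of 619 of WT_UV and 239 of 508 of RP_UV, and 44.4% of the WT_Ctrl UMIs lay in 5 cells.

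Il1rn, the natural antagonist of the interleukin 1 receptor, was at 9.74, 52.7 and 65.7 CPM, a ratio of 5.41 (3.06 to 10.6) for WT_UV over WT_Ctrl. Osm, the cytokine oncostatin M, was at 4.87, 82.1 and 54.1 CPM, a ratio of 16.9 (7.71 to 46.1). Nlrp3, the sensor of the inflammasome, was at 18.7, 79.1 and 109 CPM, a ratio of 4.24 (2.80 to 6.73). The agonist gene Il1b, the antagonist gene Il1rn and the sensor gene Nlrp3 were thus higher in the same library.

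Socs3, a feedback inhibitor of cytokine signalling, was at 55.2, 182 and 235 CPM, a ratio of 3.30 (2.59 to 4.28). The feedback inhibitor of NF-kB signalling Tnfaip3 was at 129.8, 273 and 189 CPM, a ratio of 2.10 (1.79 to 2.48). Tnf was at 66.5, 142 and 115 CPM, a ratio of 2.14 (1.71 to 2.71). In RP_UV, Tnf and Tnfaip3 lay between the other libraries, whereas Socs3 was highest there.

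Among 5 neutrophil-attracting chemokines, Cxcl1 and Cxcl2 could be tested and both were called higher in WT_UV. Cxcl2 was at 356 CPM in WT_Ctrl, 978 in WT_UV and 3154 in RP_UV. The ratio was 2.75 (2.49 to 3.03) for WT_UV over WT_Ctrl and 3.22 (3.13 to 3.32) for RP_UV over WT_UV. In WT_Ctrl 56.3% of the Cxcl2 UMIs came from 5 cells, against 16.5% in WT_UV and 10.4% in RP_UV. Cxcl1 was at 21.1, 56.2 and 168 CPM, and its ratio of 2.67 for WT_UV over WT_Ctrl turned to 0.809 with Ccl8 required at 0 UMIs.

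The bases upstream of Cxcl2, which was higher in both steps, and of H2-Aa, which was lower in both, are shown because these genes carried the main contrasts. Each stretch is the 250 bases before the transcription start in RefSeq, build GRCm38.p6, on the strand of the gene. Capitals mark letters that match the NF-kB consensus, named here without its letters, or CCAAT, on either strand.
Cxcl2 (chr5:90903649-90903898, plus strand): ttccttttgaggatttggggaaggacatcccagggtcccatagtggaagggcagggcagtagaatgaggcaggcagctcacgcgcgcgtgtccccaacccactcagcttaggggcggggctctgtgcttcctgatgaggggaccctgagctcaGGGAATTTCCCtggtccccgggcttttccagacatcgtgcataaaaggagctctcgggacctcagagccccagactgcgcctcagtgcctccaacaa
H2-Aa (chr17:34287824-34288073, minus strand): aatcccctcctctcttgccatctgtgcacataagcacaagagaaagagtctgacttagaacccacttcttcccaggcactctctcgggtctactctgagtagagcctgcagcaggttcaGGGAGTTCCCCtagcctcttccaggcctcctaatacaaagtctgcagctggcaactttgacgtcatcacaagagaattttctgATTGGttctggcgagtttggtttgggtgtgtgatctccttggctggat
Each stretch held 2 overlapping matches to the NF-kB consensus, a motif found in 7.25% of the 32851 upstream stretches of this length. H2-Aa also held 1 match to CCAAT, on the opposite strand and starting 48 bases before the start, which 33.8% of stretches hold, and Cxcl2 held 0. A match is a description of the letters and not a binding site.

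Of 10 monocyte-attracting and other CC chemokines, 9 were tested, 2 were called higher and 2 lower in WT_UV over WT_Ctrl, and the median of 0.54 changed sign in 4 alternatives (between -0.35 and -0.10). The list summed to 2590.0 CPM in WT_Ctrl, 1582 in WT_UV and 3572 in RP_UV. Ccl2, the ligand of Ccr2, was at 66.5, 146 and 490.1 CPM, a ratio of 2.20 (1.76 to 2.79) for WT_UV over WT_Ctrl and 3.35 (3.09 to 3.62) for RP_UV over WT_UV. Ccl7, another ligand of Ccr2, was at 23.5, 105 and 445 CPM, a ratio of 4.45 (3.07 to 6.68) and then 4.26 (3.89 to 4.65). Both ligands were thus higher at each step, while their receptor Ccr2 had a ratio of 0.853 (0.810 to 0.9) and then 0.314 (0.293 to 0.335). Ccl24, an eosinophil attractant, went the other way in WT_UV, at 107, 25.6 and 65.0 CPM.

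Monocyte and recruited-cell genes, of which 10 of 12 could be tested, had 4 called higher and 1 lower, with a median of 0.95. Thbs1, encoding thrombospondin, was at 4.06, 160.2 and 257 CPM, a ratio of 39.5 (16.9 to 122) from 5 UMIs in WT_Ctrl. Vcan, the matrix proteoglycan versican made by monocytes, was at 3.25, 61.6 and 153 CPM, a ratio of 19.0 (7.36 to 69.9) from 4 UMIs. Chil3 had a ratio of 71.3 (12.7 to 2824) from 1 UMI in WT_Ctrl. Plac8 was at 33.3, 98.4 and 53.7 CPM, a ratio of 2.96 (2.16 to 4.15). Fn1 was the member called lower, with a ratio of 0.481 (0.443 to 0.523), and in the Ccl8-high macrophages the same contrast gave 5.02 (4.10 to 6.20). The Ccl8 limit counts UMIs and WT_UV was deeper, and the part of depth in this difference was not tested.

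Lectins and scavenger receptors were split. Clec4n, which encodes the fungal receptor dectin-2, was at 5.68, 289.9 and 350.3 CPM, a ratio of 51.0 (24.7 to 127). It was found in 7 of 281 Ccl8-low macrophages of WT_Ctrl, 418 of 619 of WT_UV and 267 of 508 of RP_UV. In the Ccl8-high class Clec4n had a ratio of 3.42 (3.05 to 3.86), from 68.0 CPM in WT_Ctrl to 233 in WT_UV. Msr1 had a ratio of 4.38 (3.31 to 5.91) in the Ccl8-low class. Cd36, a receptor for oxidized lipids, was at 322, 44.3 and 67.2 CPM, and Axl, a receptor for dying cells, at 88.4, 17.0 and 17.1 CPM, both lower in the irradiated libraries.

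Matrix remodelling genes had 12 of 19 members tested, 6 called higher and 2 lower, with a median of 1.16. Mmp12 had a ratio of 3.83 (3.05 to 4.89). Mmp14, a membrane-bound collagenase, was at 17.0, 72.5 and 69.3 CPM, a ratio of 4.25 (2.76 to 6.93). Plaur, the urokinase receptor, was at 45.4, 179 and 185 CPM, a ratio of 3.94 (3.02 to 5.24). For Mmp14 and Plaur the values of WT_UV and RP_UV lay close together.

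A pair of growth factors at 0 in WT_Ctrl and an adhesion gene near 0 there were found in both irradiated libraries. Pgf, encoding placental growth factor, was at 0, 64.7 and 43.6 CPM, so that WT_UV was at least 26.6-fold higher than the floor of 3 UMIs in WT_Ctrl. Nrg1, encoding neuregulin, was at 0, 60.4 and 33.0 CPM and was at least 24.8-fold higher. Flrt3, an adhesion protein, was at 4.87, 127 and 97.3 CPM, a ratio of 26.1 (11.9 to 71.3). These genes were not driven by a few cells, since 157 of 619 Ccl8-low macrophages of WT_UV had a Pgf UMI, 117 an Nrg1 UMI and 186 a Flrt3 UMI.

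Mfge8, a bridge to dying cells that is also high in Langerhans cells, was at 13, 196 and 199 CPM, and 48.9% of its UMIs in WT_UV lay in 5 cells. Mucl1 had 94.0% of its WT_UV UMIs in 5 cells. The 5 Langerhans cell genes summed to 97.4, 432 and 421 CPM in the Ccl8-low macrophages, with Cd207 UMIs in 4, 45 and 31 cells. Without cells that held UMIs of other lineages, the Langerhans median log2 ratio turned from 2.01 to -3.13. That removal can build in such a fall. The part of cells with UMIs of other lineages in the Mfge8 ratio was not tested.

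Retnla, a secreted protein of alternative activation, was lower at each step, at 10315 CPM in WT_Ctrl, 1307 in WT_UV and 373 in RP_UV. It was 7.89-fold lower in WT_UV than in WT_Ctrl (7.69 to 8.10) and 3.50-fold lower in RP_UV than in WT_UV (3.28 to 3.74). The number of Ccl8-low macrophages with a Retnla UMI was 178 of 281, 147 of 619 and 54 of 508. Fewer cells with Retnla and a lower level went together. In WT_Ctrl 15.3% of the Retnla UMIs lay in 5 cells, against 38.2% in WT_UV and 56.8% in RP_UV.

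The interferon-induced GTPases Gbp2b and Iigp1 were at 161, 10.2 and 1.45 CPM and at 106, 8.5 and 8.35 CPM. Cxcl9, a chemokine for lymphocytes induced by interferon gamma, was at 144, 36.2 and 22.9 CPM, with 71.3% of its WT_Ctrl UMIs in 5 cells. Of 13 interferon-stimulated genes, 9 were tested, 0 were called higher and 1, Cxcl9, lower, with a median of -0.78. That median was -0.11 without cells that held UMIs of other lineages, -0.19 as the mean over cells and -0.23 after thinning. Gbp2b was broader, with a UMI in 89 of 281 Ccl8-low macrophages of WT_Ctrl and 29 of 619 of WT_UV.

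Resident dermal macrophage genes had 13 of 16 members tested, 2 called higher and 4 lower, with a median of -0.74. Igf1, an insulin-like growth factor, was at 394, 88.1 and 64.6 CPM. Maf, a transcription factor of macrophages, was at 289.7, 670.4 and 648 CPM and went the other way, with a ratio of 2.31 (2.08 to 2.58). Klf4, another transcription factor, was at 361, 915 and 490.1 CPM. The list named for resident cells thus held members on both sides.

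Hal, encoding histidine ammonia-lyase, which breaks down histidine, was at 471 CPM in WT_Ctrl, 2.41 in WT_UV and 191 in RP_UV. It was 195-fold lower in WT_UV than in WT_Ctrl (124 to 327) and 79.2 times as high in RP_UV as in WT_UV (50.2 to 133). WT_UV stood apart from both libraries of the other flow cell, and Hal did so in the Ccl8-high class as well, at 1363, 1.75 and 798 CPM. Apoe at 7364, 2647 and 6702 CPM, C1qa at 3087, 1293 and 2994, Ccl6 at 1443, 448 and 1277 and Folr2 at 157, 38.6 and 175 also stood apart in WT_UV. For these genes UVB and genotype cannot be told apart from the sequencing run.

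Overexpression of Cox-2 under UVB was examined by RP_UV against WT_UV. Of 5629 genes tested, 142 were called higher, or 2.52%, and 122 lower, or 2.17%, with a median log2 ratio of 0.02 over all tested genes. Cxcl2, Ccl2, Ccl7, Chil3, Spp1, Trem2 and the lectin Clec4d were higher in RP_UV, and Ccr2, Retnla, Ciita and Cx3cr1 were lower. Higher chemokines were not confined to the Ccl8-low class. The neutrophil-attracting chemokines summed to 551 CPM in WT_UV and 1295 in RP_UV in the Ccl8-high class. In the Lyve1-positive class they summed to 108 and 1218 CPM. Ccl2 was found in 26.3% and 50.8% of Ccl8-high macrophages thinned to 2000 UMIs, in that order.

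All 3 of the neutrophil-attracting chemokines tested were called higher, with a median of 1.69. These were Cxcl2, given above, Cxcl1, with a ratio of 2.98 (2.61 to 3.41), and Ppbp, a chemokine of platelets and monocytes, at 0.811, 12.7 and 52.6 CPM with a ratio of 4.15 (3.19 to 5.41). Of 9 CC chemokines tested, 5 were called higher and 1 lower, with a median of 1.31. The exception was Ccl5, a chemokine for lymphocytes, at 45.4, 66.5 and 3.99 CPM and 16.7-fold lower in RP_UV (9.23 to 33.6). Its values rested on few cells, since 97.1% of the Ccl5 UMIs of WT_UV lay in 5 cells and the T and NK cell genes summed to 43.8, 25 and 7.26 CPM.

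The inflammatory list moved less than the chemokines, with 2 of 11 tested genes called higher, 0 lower and a median of 0.36, which was -0.02 after thinning and -0.16 without cells that held UMIs of other lineages. Il1b had a ratio of 1.39 (1.34 to 1.44), Socs3 of 1.29 (1.17 to 1.42) and Tnf of 0.808 (0.711 to 0.916). Il4ra, the receptor chain for interleukin 4 and interleukin 13, was called higher at 47.9, 73.0 and 166 CPM. Il10 was the other gene called, at 0.811, 14.6 and 33.0 CPM, and its ratio of 2.26 turned to 0.987 after thinning.

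Chil3 had a ratio of 10.1 (9.09 to 11.2), and its UMIs were spread over 170 of 508 Ccl8-low macrophages of RP_UV and 127 of 619 of WT_UV. Spp1, encoding the secreted phosphoprotein osteopontin, was at 16.2, 43.9 and 283 CPM, a ratio of 6.44 (5.67 to 7.33), with 48.4% of the RP_UV UMIs in 5 cells. Trem2 had a ratio of 2.58 (2.30 to 2.90) and a UMI in 239 of 508 cells, against 244 of 619 in the deeper WT_UV. Clec4d, a lectin that pairs with other activating receptors, was at 3.25, 32 and 197 CPM, a ratio of 6.15 (5.29 to 7.17). Ctsl, a lysosomal protease, was at 105, 203 and 681 CPM, a ratio of 3.36 (3.14 to 3.59). Chil3, Clec4d, Ctsl and Spp1 were also higher in WT_UV than in WT_Ctrl, whereas Trem2 was lower there.

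The carriers of fatty acids Fabp4 and Fabp5 differed in how far they could be read. Fabp5 was at 183, 802 and 1083 CPM, while keratinocytes held 863, 2683 and 8698 CPM, and the part of free keratinocyte RNA was not tested. Fabp4 was at 43.8, 0.762 and 166 CPM, with 74.0% of the RP_UV UMIs in 5 cells.

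Several of the largest ratios of RP_UV over WT_UV rested on a handful of cells with transcripts of other lineages. Of 156 UMIs of Acta2, smooth muscle actin, 148 lay in 5 cells. Col3a1, a fibroblast collagen, was at 53.6, 4.06 and 197 CPM, with 93.2% of the RP_UV UMIs in 5 cells, and its ratio of RP_UV over WT_Ctrl turned from 3.67 to 0.476 with at least 5 of the 7 macrophage markers required. The keratins Krt16, Krt17 and Krt6b had 91.3%, 90.4% and 90.0% of their RP_UV UMIs in 5 cells.

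The fibroblast genes summed to 299, 39.7 and 766 CPM in the 3 libraries, and 5 cells held 82.0% of the RP_UV value. Red cell genes, whose copies share reads, summed to 1.62, 1.02 and 718 CPM, all 1977 UMIs of RP_UV being in 4 cells. Keratinocyte genes summed to 761, 635 and 985 CPM, and dendritic cell genes to 270.2, 410.0 and 259.9 CPM. Mast cell genes summed to 7.30, 75.1 and 40.7 CPM and endothelial genes to 23.5, 14.2 and 25.8 CPM. The part of cells or free RNA of these lineages in the ratios was not tested.

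Neutrophil genes had a median log2 ratio of 3.70 in RP_UV over WT_UV and 5.43 in RP_UV over WT_Ctrl. Without cells that held UMIs of other lineages, these medians were -0.98 and -0.60. Cells were removed there for their UMIs of other lineages, so a fall of such a median can be built in and decides nothing. The 10 neutrophil genes summed to 55.2, 97.6 and 945 CPM. Ly6g, which defines neutrophils in the mouse, was at 0 in all 3 libraries. S100a9, a calcium-binding protein of neutrophils and monocytes, was at 0, 23.0 and 458 CPM. At least 3 UMIs of S100a8 and S100a9 together were found in 0, 2 and 37 Ccl8-low macrophages. Keratinocytes of RP_UV held 125 CPM of S100a9. The part of adhering neutrophils or their free RNA in these values was not tested.

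On the lower side, Ccr2 was 3.19-fold lower in RP_UV than in WT_UV (2.98 to 3.41) and Cx3cr1, the fractalkine receptor of monocytes and macrophages, was at 45.4, 38.7 and 9.08 CPM, 4.27-fold lower. Slamf7, a receptor of the SLAM family, was at 175, 101 and 30.9 CPM. Lpl had a ratio of 0.368 (0.337 to 0.402). Cxcr4, the receptor of Cxcl12, was at 61.7, 242 and 79.1 CPM, high in WT_UV alone.

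For MHC class II genes, 0 of 8 tested were called in WT_UV over WT_Ctrl and the median was -0.37. In RP_UV over WT_UV the median was -0.74 and 1 of 8 was called lower, namely Ciita, the master regulator of the class II genes, at 229, 182 and 55.9 CPM. H2-Aa was at 11084, 7345 and 4202 CPM, a ratio of 0.663 (0.650 to 0.675) and then 0.572 (0.561 to 0.584). Cd74, the invariant chain, was at 24044, 18078 and 10501 CPM. In the Ccl8-high macrophages H2-Aa was at 8386, 4897 and 1030.1 CPM, a ratio of 0.210 (0.205 to 0.216) for RP_UV over WT_UV, so the difference was not confined to the Ccl8-low class.

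RP_UV against WT_Ctrl compares libraries of the same flow cell. Of 5580 genes tested, 394 were called higher, or 7.06%, and 241 lower, or 4.32%, with a median log2 ratio of 0.14. The neutrophil-attracting chemokines had 3 of 3 tested genes higher and a median of 3.14, the inflammatory list 7 of 10 higher and a median of 1.92, and the matrix list 10 of 15 higher, 1 lower and a median of 1.96. The MHC class II list had 5 of 8 lower and a median of -1.21. Cxcl2 had a ratio of 8.85 (8.04 to 9.77), Il1b of 4.65 (4.22 to 5.14), Ccl7 of 18.9 (13.1 to 28.4) and H2-Aa of 0.379 (0.370 to 0.389). The contrast shares its libraries with the other contrasts and is not a further sample.

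**Figure D3:**
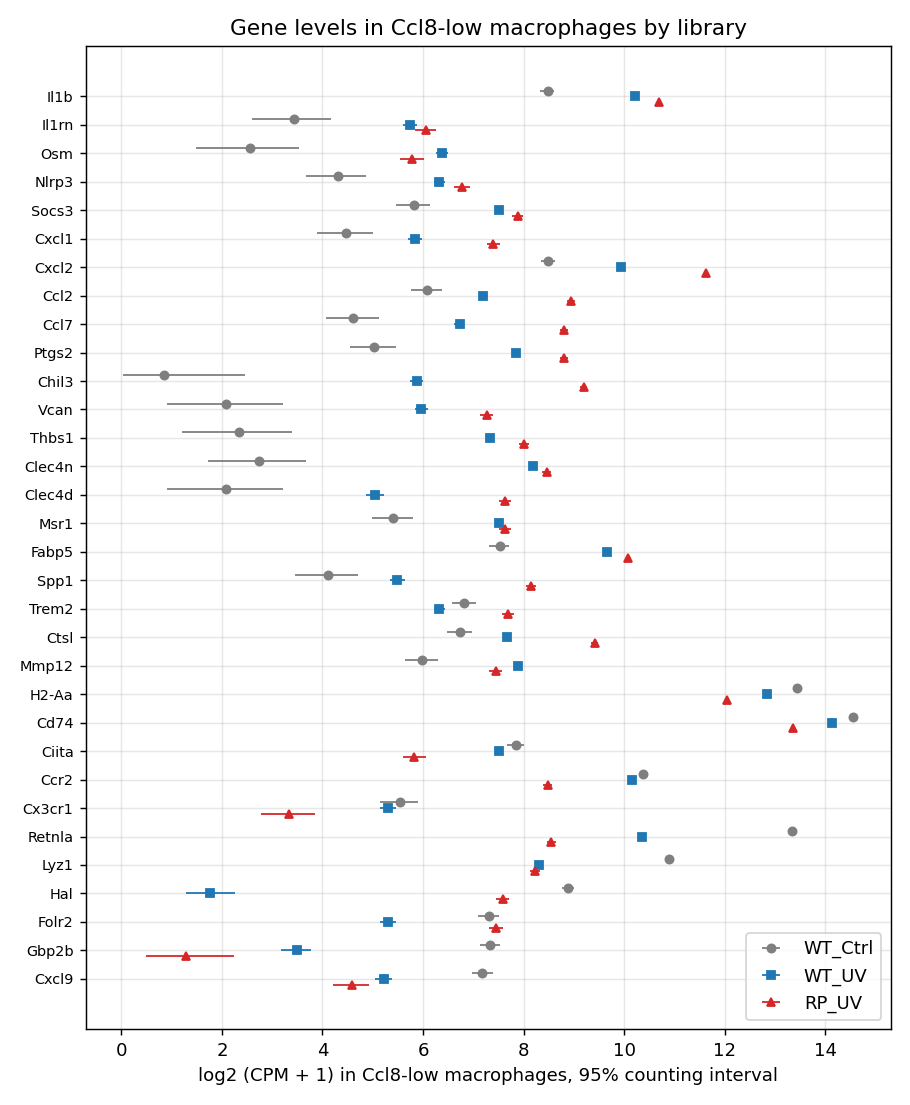
Level of 32 genes in the Ccl8-low macrophages (log2 of CPM plus 1, horizontal axis), 1 point a library, with exact 95% Poisson intervals where they exceed the symbol. Cxcl2 was at 356, 978 and 3154 CPM, H2-Aa and Retnla lay in the opposite order, and Hal was lowest in WT_UV.

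**Figure D4:**
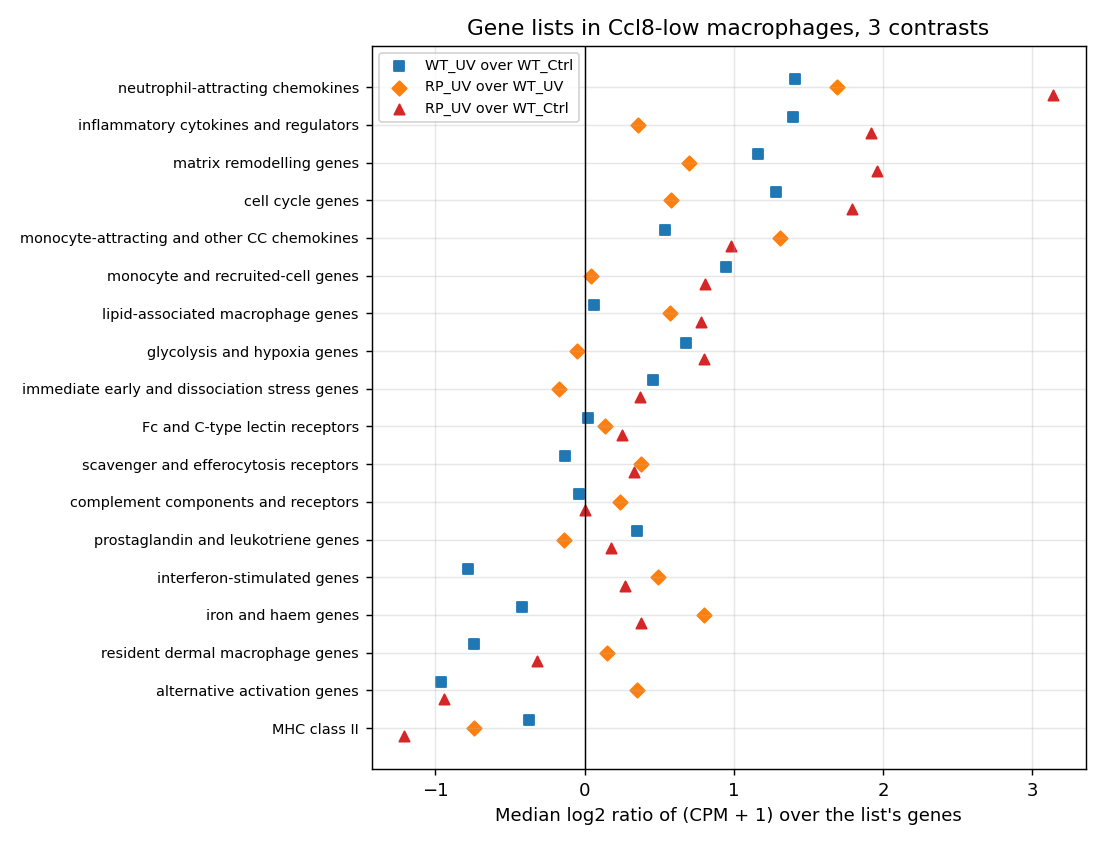
Median log2 ratio of (CPM plus 1) over the tested genes of each list (horizontal axis) for the 3 contrasts (symbols), with a line at 0. Neutrophil-attracting chemokines lay at 1.41, 1.69 and 3.14 and MHC class II genes at -0.37, -0.74 and -1.21.

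Prostaglandin and leukotriene genes had 1 of 11 tested genes called higher, Ptgs2 itself, and 2 lower in WT_UV over WT_Ctrl. Ptger2 was at 21.1, 5.59 and 5.45 CPM and Ptger4 at 18.7, 29.1 and 20.7 CPM, both low. Genes of the dissociation stress response had 3 of 18 called higher in WT_UV over WT_Ctrl and 0 in RP_UV over WT_UV, with medians of 0.46 and -0.17. Cell cycle genes had 3 of 5 called higher in WT_UV over WT_Ctrl with a median of 1.28, which was 0.18 after thinning. Mki67, a gene of dividing cells, was found in 2.17%, 6.08% and 5.61% of the Ccl8-low macrophages thinned to 2000 UMIs, against 4.84%, 8.47% and 14.5% of keratinocytes thinned alike, and in 8 of 281, 105 of 619 and 53 of 508 cells before thinning. These shares lay below those of keratinocytes. Keratinocytes carried Mki67 themselves, so this comparison cannot decide whether the macrophages divided. In WT_UV, Mki67 was found in 2.43% of thinned Ccl8-high and 1.16% of thinned Lyve1-positive macrophages. The Ccl8-low share was also the highest of the 3 classes in the other libraries, from 5 of 230 cells in WT_Ctrl. Division was not tested.

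Myeloid identity genes that the rule did not use had 0 of 10 called higher and 1 called lower in each of the 3 contrasts. The gene called lower was Lyz2 in WT_UV over WT_Ctrl and Cx3cr1 in the others. Adgre1, which encodes the macrophage antigen F4/80, was at 332, 253 and 277 CPM. Lyz2, a lysozyme of myeloid cells, was at 12576, 5342 and 9514 CPM. Glycolysis and hypoxia genes had medians of 0.68 and -0.05, with Slc2a1, the glucose transporter, at 12.2, 34.0 and 37.8 CPM. Iron and haem genes had medians of -0.42 and 0.80, complement genes of -0.04 and 0.24, and lipid-associated genes of 0.06 and 0.57, each for WT_UV over WT_Ctrl and then RP_UV over WT_UV.

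How the cells differed among themselves was read after thinning each to 2000 UMIs, which left 230 Ccl8-low macrophages in WT_Ctrl, 592 in WT_UV and 446 in RP_UV. Ccr2 was found in 79.6%, 75.5% and 41.0% of them, against 0.726%, 0.678% and 0.382% of keratinocytes thinned alike. Before thinning, median depth was 6149, 13528 and 6673 UMIs in keratinocytes. The share with Il1b was 14.3%, 52.2% and 39.5%, and the share with Cxcl2 was 10.0%, 38.0% and 53.6%. The share with Cxcl2 was highest in RP_UV and the share with Il1b in WT_UV.

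H2-Aa was found in 100%, 95.8% and 57.6% of the thinned Ccl8-low macrophages, against 8.84%, 10.5% and 2.93% of keratinocytes. Without thinning it was found in 274 of 281, 606 of 619 and 293 of 508 cells. The 10 MHC class II genes summed to a median of 122 UMIs per 2000 in WT_Ctrl, with quartiles of 93 and 151. The median was 72.0 for WT_UV, with quartiles of 45.0 and 102, and 19.0 for RP_UV, with quartiles of 1 and 82.8. In RP_UV 84 of 446 cells had 0 UMIs of the list and 76 had 1 or 2, whereas 122 had 30 to 99 and 81 had 100 to 299. In WT_Ctrl no cell had fewer than 3, and in WT_UV 11 of 592 did. RP_UV thus held cells with MHC class II in the range of the wild-type libraries and cells with next to none, with few cells of this last kind in the wild-type libraries.

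**Figure D5:**
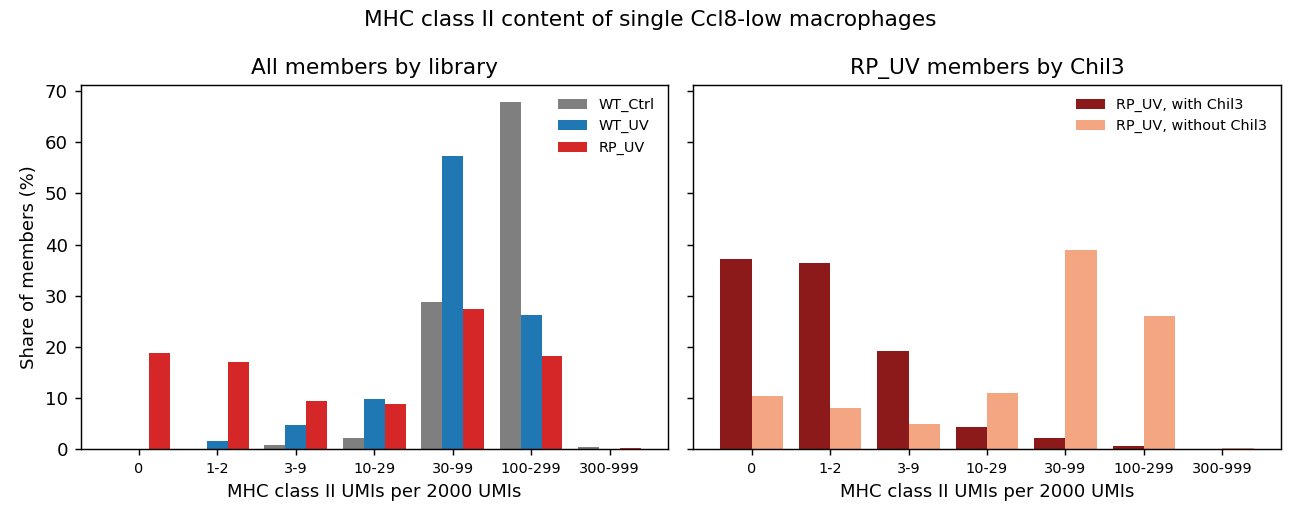
Share of Ccl8-low macrophages (%, vertical axis, from 0) by the number of MHC class II UMIs per 2000 UMIs (horizontal axis, classes of unequal width), by library (left) and for RP_UV cells with and without a Chil3 UMI (right). RP_UV had 18.8% of its cells at 0, and 37.1% of its Chil3-positive cells were there.

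In RP_UV, Chil3 was found mostly in cells without H2-Aa. After thinning, the share of cells with Chil3 was 0.435%, 9.63% and 31.4% in the order WT_Ctrl, WT_UV and RP_UV, against 0%, 0% and 0.254% of keratinocytes. Of 140 RP_UV cells with Chil3, 19 had an H2-Aa UMI, which was 0.236 of the number given by the 2 shares multiplied. Of 57 such cells in WT_UV, 53 had an H2-Aa UMI, or 0.971 of that number. By this count, Chil3 and H2-Aa were separated in RP_UV. In WT_UV 567 of 592 cells had an H2-Aa UMI, so the count could hardly show a separation there. By level, H2-Aa was at 5570.2 CPM in WT_UV cells with Chil3 and at 6988 CPM in those without. The separation in RP_UV was noticed in these cells, comes from 1 mouse and has no test.

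Between RP_UV cells with and without Chil3, H2-Aa was at 264 and 5858 CPM and Cd74 at 1036 and 13838 CPM. Msr1 was at 318 and 150.3 CPM, Spp1 at 564 and 131 and Trem2 at 343 and 183, each higher in the cells with Chil3. Of the genes that the rule used, Pf4 was at 7871 and 2725 CPM and Ms4a7 at 1021 and 443, as a description. Ccr2 was similar, at 439 and 369 CPM, Ly6c2 was at 60.7 and 8.17 and Cxcl2 at 2711 and 3165. Retnla was at 3.57 and 419.9 CPM, and the dividing-cell gene Mki67 at 14.3 and 68.6.

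The split by H2-Aa gave the chemokines their own pattern. Il1b was at 1953 CPM in RP_UV cells with H2-Aa and 881 in those without, Cxcl2 at 3469 and 2415, and Ccl2 at 354 and 603. Fabp5 was at 700.4 and 1569 CPM. With the comparison limited to cells with H2-Aa in every library, RP_UV over WT_UV gave a ratio of 3.44 for Cxcl2 and 3.18 for Ccl2, close to those over all cells, whereas Chil3 went from 10.1 to 2.97 and Spp1 from 6.44 to 2.70. The Cxcl2 and Ccl2 ratios were thus little changed among cells with H2-Aa, and those of Chil3 and Spp1 were smaller there. This limit on H2-Aa was chosen after seeing the data.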

How the data were processed

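Dorsal skin cells of 3 mice (1 library a group) were measured by 10x 3′ single-cell RNA sequencing. The files deposited by the authors hold UMI counts, not normalized, of 32285 genes in called cells; Cell Ranger 6.1.1 is named per the file headers and build mm10 by the submitters' processing notes. Cells were kept at under 10% mitochondrial UMIs, over 200 genes and under 4000 genes (6000 in WT_UV), as in the methods of the study. The members and gene lists were chosen with earlier results of these data known.

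UMIs were summed over the cells of a class and library and divided by their total (CPM). Genes with a mean of at least 20 CPM in a pair were compared, and a ratio of at least 2 or at most 0.5 was called. Shares have exact Clopper-Pearson 95% intervals, levels exact Poisson and ratios exact conditional binomial ones; all cover counting error only. A gene at 0 was set to a floor of 3 UMIs per library. List medians used a pseudocount of 1 CPM. Genes were named by rank (10 higher and 10 lower in each contrast by the interval bound nearest to 1, at 50 CPM or more in 1 library), with list genes past 2-fold and the label's markers; genes named outside this rule (such as Ly6c2, Ly6g, Cd74, Cd163, Adgre1, Ptger2 and Ptger4) were chosen after their values were seen. Some genes that the rule ranked are not reported here. Of the listed genes, 2 had no usable row (Clec7a, not analysed here, and Aldoa, whose symbol names 2 genes). Scrublet (scanpy 1.11.5) marked 74, 1 and 1 cells in WT_Ctrl, WT_UV and RP_UV, too few to use, so no doublets were removed and the 5% of cells with the highest score were removed as an alternative. TMM factors (edgeR 4.0.16) and median-ratio factors (DESeq2 1.42.0) served only as other scalings, with no test. The scripts ran on Python 3.11.15, numpy 2.4.6, scipy 1.17.1 and R 4.3.3 and were tested on simulated data.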

Additional observations from a re-analysis of the deposited data

Results flagged for a closer look

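For 9 genes, in 10 contrasts since Fn1 stands in 2, the ratio between libraries lay past 2-fold in opposite directions in the Ccl8-low macrophages and in another macrophage class of the same libraries. Each group was 1 library, and the difference was not tested for any of them.

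Fn1 was lower after UVB in the Ccl8-low class and higher in the Ccl8-high class, with ratios of 0.481 and 5.02 for WT_UV over WT_Ctrl and of 0.495 and 2.39 for RP_UV over WT_Ctrl. The Ccl8 limit counts UMIs, and WT_UV was the deepest library. Its cells with 2 Ccl8 UMIs, placed in the Ccl8-high class, had Ccr2 at 1067 CPM, against 1119 in those with 1. The part of depth in the Fn1 ratios was not tested. Plac8, a monocyte gene, had a ratio of 2.96 for WT_UV over WT_Ctrl against 0.177 in the Lyve1-positive class. Pclaf, a gene of DNA replication, had 2.54 against 0.478 in the Lyve1-positive class for the same contrast, and its ratio in the Ccl8-low class was 0.579 after thinning, on the same side as the other class. The MHC-like gene H2-M2 had 0.296 for RP_UV over WT_UV against 6.22 in the Lyve1-positive class. It was found in 49 of 619 Ccl8-low macrophages of WT_UV and 17 of 508 of RP_UV, with 48.3% and 66.1% of its UMIs in 5 cells.

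The other genes are transcripts of fibroblasts and keratinocytes, in RP_UV over WT_Ctrl. Col1a1 had a ratio of 2.18 against 0.0780 in the Lyve1-positive class, Col3a1 of 3.67 against 0.149, Dcn of 2.45 against 0.25 and Sparc of 2.54 against 0.261. The keratinocyte gene Sfn had 2.06 against 0.480 in the Ccl8-high class. Of the 2110 fibroblast UMIs in the Ccl8-low macrophages of RP_UV, 1730 lay in 5 cells.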

How the results depend on the processing

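No paired analysis was possible because each group had 1 library, and no replicate could be left out for the same reason. For the shares and the counts of genes past 2-fold, 66 alternative values stayed near the reported ones and 27 moved, and the latter were as follows. Shares of macrophages in WT_Ctrl, WT_UV and RP_UV were 12.4%, 19.7% and 16.2% with at least 5 of the 7 markers, 9.90%, 11% and 10.9% with Ccl8 at 0 UMIs, and 11.5%, 17.0% and 14.9% without cells that held UMIs of other lineages. Thinning to 2000 UMIs gave 33.8% in WT_UV and 24.3% in RP_UV. Limiting the class to cells with at least 1 H2-Aa UMI, an alternative chosen after seeing the data, gave 11.1% in RP_UV.

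Genes called higher and lower in WT_UV over WT_Ctrl numbered 422 and 211 after thinning, 4054 and 2236 with no filter on low values, and 139 and 68 at a mean of at least 50 CPM. For RP_UV over WT_UV, 221 were lower after thinning, 2745 were higher and 3061 lower with no filter, and 76 and 64 at 50 CPM. For RP_UV over WT_Ctrl the numbers were 3612 and 2421 with no filter and 189 and 106 at 50 CPM.

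List medians changed sign in 71 of the alternatives, 60 of them for medians under 1 in size, and called ratios turned direction as given below. The cause was not tested. For WT_UV over WT_Ctrl, the CC chemokine median of 0.54 was -0.35 with Ccl8 at 0, -0.27 without the cells of highest Scrublet score, -0.10 without other lineages and -0.26 as the mean over cells, and the neutrophil median of 0.48 was -0.36 after thinning. The medians of 1 or more in size that changed sign follow. The median log2 ratio of dendritic cell genes was -0.21 after thinning and -0.39 with no filter in WT_UV over WT_Ctrl, and -1.35 and -1.37 in RP_UV over WT_Ctrl. Without cells that held UMIs of other lineages, the median of Langerhans cell genes was -3.13 in WT_UV over WT_Ctrl and -1.83 in RP_UV over WT_Ctrl, that of neutrophil genes -0.98 in RP_UV over WT_UV and -0.60 in RP_UV over WT_Ctrl, and that of fibroblast genes -1.29 in RP_UV over WT_Ctrl. Fibroblast genes were also at -1.05 with 5 markers and -2.31 with H2-Aa required. Where cells were removed for UMIs of other lineages, a fall in the median of such a lineage can be built in.

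For WT_UV over WT_Ctrl, the ratio was 0.541 for Ccl17 and 0.579 for Pclaf after thinning, 0.809 for Cxcl1 with Ccl8 at 0, and 1.19 for Krt15 without other lineages. For RP_UV over WT_UV, it was 0.910 for Ctsk without other lineages, 0.935 for Cxcl10 and 0.987 for Il10 after thinning, 0.969 for Dcn with H2-Aa required, 0 for Hba-a1 with 5 markers, with Ccl8 at 0 and with H2-Aa required, and 0 for Hba-a2 with H2-Aa required. For RP_UV over WT_Ctrl with 5 markers, it was 0.420 for Col1a1, 0.476 for Col3a1, 0.748 for Dcn and 0.441 for Hbb-bt. Without other lineages it was 0.392 for Col3a1 and 0.287 for Dcn. With Ccl8 at 0 it was 0.602 for Sfn and 0 for Hba-a2. With H2-Aa required it was 0.206 for Col1a1, 0.187 for Col3a1, 0.106 for Dcn, 0.845 for Ctsk, 0.930 for Gpnmb, 0.676 for Sfn, 0.577 for Sparc and 0 for Hba-a2. Under TMM, median-ratio scaling and the mean over cells, no ratio of a called gene turned direction. List medians changed sign in 1 case under TMM, for monocyte and recruited-cell genes in RP_UV over WT_UV (0.04 to -0.02), and in 6 as the mean over cells.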

Other observations

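Among genes higher in the Ccl8-low class, Ccr2, Fn1, Ear2, Mmp12, Cd52, Alcam and Lpl had their highest ratios to the Ccl8-high class in WT_Ctrl. H2-Aa had its highest ratio in RP_UV. Lyz1, a lysozyme gene that shares reads with Lyz2, was at 1887 CPM in WT_Ctrl, 316 in WT_UV and 298 in RP_UV. Those levels were 17.9, 2.12 and 4.36 times the level of the Ccl8-high class. The part of depth in the order of these ratios was not tested. Tnfaip3 and Nr4a1, genes induced early after stimulation, were also among the genes that ranked highest against the Ccl8-high class in all 3 libraries.

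H2-Aa was found in 96.6%, 86.4% and 35.6% of thinned Ccl8-high macrophages and in 88.4%, 72.6% and 23.7% of Lyve1-positive macrophages, in the order WT_Ctrl, WT_UV and RP_UV, below the 100%, 95.8% and 57.6% of the Ccl8-low class in each library. Chil3 was found in 0%, 3.96% and 17.6% of thinned Ccl8-high macrophages. Retnla and Trem2 UMIs met in 3 thinned Ccl8-low macrophages of WT_UV, which was 0.235 of the number given by the 2 shares multiplied.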
